A study of Homo sapiens with 6 samples.

Results

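Divergent transcripts are the long non-coding RNAs (lncRNAs) that start next to a protein-coding gene and run away from it on the opposite strand, and their symbols carry the partner's name followed by -DT. The table of the series held 588 such genes among 61496 features, and the 177 whose counts per 1000000 of the library's total (CPM) averaged at least 1 over the 6 libraries are described here with their 177 partner genes. The members were chosen by this measured level over both groups together, so their level is a description and not a result. The 3 members nearest above the limit were GSK3B-DT at 1.0 CPM, DYNC1LI2-DT at 1.004 CPM and DPH6-DT at 1.009 CPM, and the 3 -DT genes nearest below it were CSGALNACT2-DT at 0.985 CPM, TMEM263-DT at 0.982 CPM and PPP1R3B-DT at 0.980 CPM. PPP1R3B-DT lay below the limit although its libraries held 13, 6 and 14 counts in the control group and 45, 102 and 59 counts in the Sev group.

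RNA polymerase II usually starts in both directions from an active CpG-rich promoter, and the upstream product is in most cases short, capped and rapidly degraded by the nuclear exosome. Early polyadenylation sites and the scarcity of U1 snRNP binding sites favour termination on the upstream side, with Integrator and the restrictor complex also ending transcription there. A minority of upstream products are stable enough to be annotated as lncRNA genes, and many of those carry names ending in -DT.

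U251 is a human glioma cell line, and its untreated cells (control, n = 3) were compared with cells exposed to the volatile anaesthetic sevoflurane for 2 h (Sev, n = 3). The labels list gas concentrations of 1.7%, 3.4% and 5.1% without assigning one to these libraries. The legend of the sequencing comparison in the study names the highest of them. Nothing in the labels states that the 3 libraries of a group came from separate cultures, so the p-values measure the spread between these libraries. Library totals ranged from 38624292 to 46318311 counts. Of the glial and neural stem markers, VIM stood at 5485 ± 536 CPM, NES at 1465 ± 46.8 CPM, SOX2 at 285.5 ± 7.22 CPM and GFAP at 269.9 ± 91.4 CPM in the control group (SD, n = 3), whereas the blood marker PTPRC and the epithelial marker EPCAM stayed under 0.1 CPM on average in both groups. Of the 12 markers measured, SOX2 and S100B fell by 0.72 and 1.10 on the log2 scale, while CD44 rose by 0.97, the neuronal SYT1 by 0.55 (13.5 to 19.7 CPM) and the endothelial PECAM1 by 0.92 (0.693 to 1.31 CPM), and their part in the results was not tested. CPM values of libraries and group means were scaled between libraries with TMM (trimmed mean of M values), whereas limits on the mean CPM use library totals. Without that scaling the median log2 fold change of all 27514 features tested moved from -0.0056 to -0.15, and the changes below are relative to the TMM scale.

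GENCODE 29 (GRCh38) placed 175 of the 177 pairs, all on opposite strands, and 158 of these had start sites within 1 kb of each other. In 115 of the 158 pairs the starts lay apart, at a median of 139 bases, and in 43 the heads overlapped or coincided. The other 17 pairs started farther apart. In 11 of them, ITGB1-DT, ATP13A3-DT, GNA15-DT and ZNF584-DT among them, the lncRNA started past the start of the partner on its downstream side, and in 6, EPM2A-DT and DUSP5-DT among them, the starts lay apart. RefSeq placed some starts elsewhere, with the lncRNA and partner starts lying apart by 18755 bases at ATP13A3, 16956 at GARS1, 3266 at RNF32 and 911 at DNAJB5, so that the distances of these pairs depend on the annotation. Exons of 47 pairs overlapped, by at most 651 bases, and exons of 45 members lay over an exon of some other gene on the opposite strand. In 8 members, GARS1-DT and CABP7-DT among them, an exon lay over an exon of another gene on the same strand, where stranded counting could not separate the reads either. Among pairs described below, exon overlaps of lncRNA and partner included 53 bases at RNF32, 99 at GARS1, 159 at EOLA2, 185 at TMEM161B, 117 at C2orf49, 198 at ATP13A3, 42 at ITGB1 and 120 at TMEM11. Exons also overlapped at GNA15. The libraries carried strand information, but whether the counting used it is not given in the sources used here. Without it, reads of such overlapping exons cannot be told apart.

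For 10 of the pairs described below, picked after their values were seen from those with starts lying apart in RefSeq, the stretch between the RefSeq start of the lncRNA and that of its partner is short and lies upstream of both genes. The sequences that follow are read 5' to 3' on the partner's strand from the RefSeq promoter windows (GRCh38.p14) and leave out both start bases, with the letters of a searched motif in capitals. They are shown so that pairs with a risen and with a fallen lncRNA can be compared at the bases that separate the starts. The capitals mark SP1 (GGGCGG), ETS (CCGGAAG), NFY (CCAAT) or the cAMP response element CRE (TGACGTCA) on either strand. In the first 5 pairs the lncRNA rose and in the last 5 it fell.
STK4-DT/STK4, chr20:44966459-44966511, partner on the + strand: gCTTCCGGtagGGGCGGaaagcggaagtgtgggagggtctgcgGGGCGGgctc
CD2BP2-DT/CD2BP2, chr16:30355309-30355433, partner on the - strand: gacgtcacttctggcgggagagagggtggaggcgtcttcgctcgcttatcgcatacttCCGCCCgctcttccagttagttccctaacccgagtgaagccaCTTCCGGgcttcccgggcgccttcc
GJD2-DT/GJD2, chr15:34754999-34755083, partner on the - strand: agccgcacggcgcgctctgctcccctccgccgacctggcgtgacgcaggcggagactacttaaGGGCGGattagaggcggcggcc
MAGOH-DT/MAGOH, chr1:53238519-53238609, partner on the - strand: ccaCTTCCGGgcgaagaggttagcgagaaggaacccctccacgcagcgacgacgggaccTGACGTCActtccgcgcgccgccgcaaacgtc
CABP7-DT/CABP7, chr22:29719904-29720002, partner on the + strand: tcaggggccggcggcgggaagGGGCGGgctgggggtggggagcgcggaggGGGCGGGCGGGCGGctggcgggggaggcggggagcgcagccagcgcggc
LRIG2-DT/LRIG2, chr1:113073103-113073197, partner on the + strand: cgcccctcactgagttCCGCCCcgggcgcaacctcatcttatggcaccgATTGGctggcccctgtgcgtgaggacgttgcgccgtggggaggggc
GMDS-DT/GMDS, chr6:2245606-2245752, partner on the - strand: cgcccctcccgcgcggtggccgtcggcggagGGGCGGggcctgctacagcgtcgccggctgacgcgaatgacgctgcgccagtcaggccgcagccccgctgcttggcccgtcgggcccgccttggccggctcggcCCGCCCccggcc
RAB30-DT/RAB30, chr11:83071898-83072065, partner on the - strand: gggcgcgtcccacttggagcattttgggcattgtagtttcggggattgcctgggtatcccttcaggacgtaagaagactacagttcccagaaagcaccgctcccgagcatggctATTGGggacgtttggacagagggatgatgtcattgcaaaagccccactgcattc
FBXO38-DT/FBXO38, chr5:148383851-148383957, partner on the + strand: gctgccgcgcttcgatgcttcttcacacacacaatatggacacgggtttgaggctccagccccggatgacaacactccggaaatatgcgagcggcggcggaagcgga
UBA6-DT/UBA6, chr4:67701156-67701277, partner on the - strand: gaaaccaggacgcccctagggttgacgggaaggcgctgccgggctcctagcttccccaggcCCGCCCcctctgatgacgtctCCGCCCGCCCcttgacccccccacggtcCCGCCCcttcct

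SP1 letters stood between the starts in both sets, in 4 of the 5 pairs whose lncRNA rose and in 3 of the 5 whose lncRNA fell. Over all 81 pairs with such a stretch they stood in 8 of 12 with a risen lncRNA, 21 of 34 with a fallen one and 23 of 35 with one that did not pass. The FBXO38 stretch held none of the 4 motifs and the MAGOH stretch held the CRE letters whole. In the CD2BP2 pair the CRE letters include a start base, which is left out here, so they are not in capitals. GENCODE 29 puts the MAGOH starts at the same base and RefSeq puts them 92 bases apart, so the length of that stretch depends on the annotation.

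Read per length, the lncRNAs were expressed well below their partners. The median FPKM (fragments scaled by gene length and library size, as deposited) in the control group was 0.671 for the members and 6.24 for the partners. Within pairs the lncRNA stood at a median of 10.8% of its partner's FPKM in the control group and 9.62% in the Sev group. It exceeded the partner in 13 pairs without Sev and in 8 with it. In the control group RAB30-DT lay at 113% of RAB30, ZNF8-DT at 129% of ZNF8 and ZNF584-DT at 148% of ZNF584. All 3 lay below their partners after Sev, at 27.4%, 65.8% and 76.4%.

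After Sev, more of the divergent lncRNAs fell than rose, while more of their partners rose than fell. At an adjusted p under 0.05 (edgeR quasi-likelihood test, Benjamini-Hochberg over 27514 features), 58 of the 177 members fell (32.8%), 29 rose (16.4%) and 90 did not pass. The lean was not seen at the lowest level: of the 64 members with a mean of 1 to 2 CPM 16 rose and 13 fell (median log2 fold change -0.089), whereas of the 81 with 2 to 5 CPM 9 rose and 30 fell (median -0.42). Among all features tested the shares were 21.5% lower and 22.1% higher, and among the 19449 features with a mean CPM of at least 1 they were 24.1% lower and 23.9% higher. In either direction 43.7% of all features and 48.0% of those at that level passed. LncRNA genes at that level leaned in the same direction, with 28.2% lower and 20.2% higher of 2682 genes. Of the 176 partners tested, 62 rose (35.2%) and 37 fell (21.0%), beside 24.6% higher and 22.4% lower of 13398 protein-coding genes with a mean CPM of at least 1. GJD2, at 4 counts or fewer in every library, was too low to test.

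**Figure D1:**
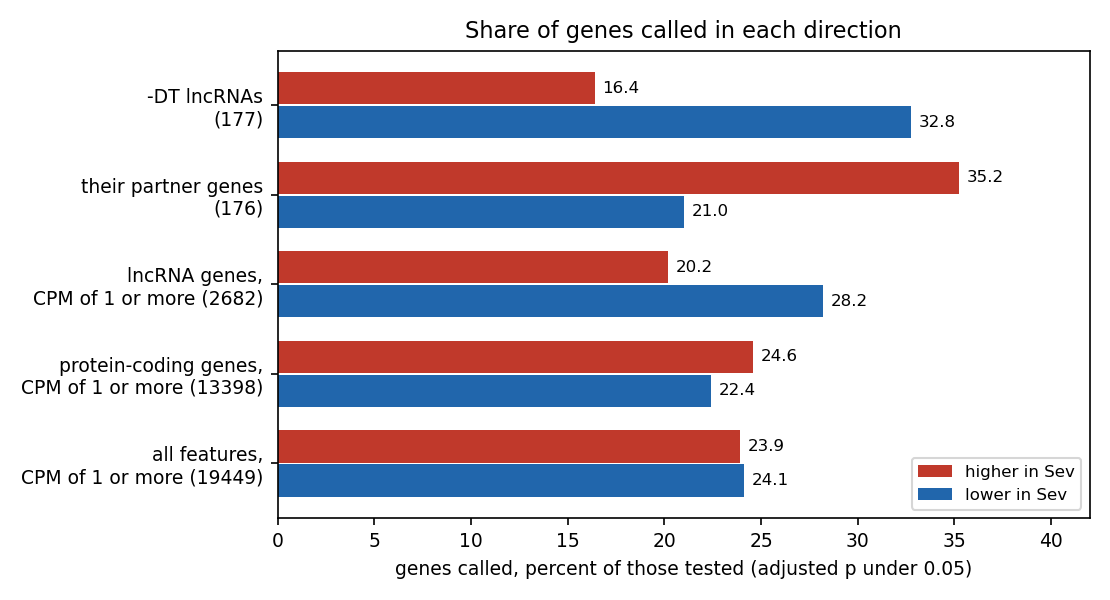
Percent of tested genes that were higher (red bars) or lower (blue bars) in Sev than in control at an adjusted p under 0.05, for the -DT lncRNAs, their partner genes and 3 wider sets of genes with a mean CPM of at least 1. The -DT lncRNAs show 32.8% lower against 16.4% higher, and their partners 21.0% lower against 35.2% higher.

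The median log2 fold change was -0.26 over the members and 0.092 over the partners, beside -0.13 over the lncRNA genes, 0.019 over the protein-coding genes and -0.0056 over all features tested. With library totals alone as the scale, the medians were -0.39 for the members, -0.049 for the partners and -0.15 for all features, so the sign of the partners' median depends on the scale and its place above that of all features does not. The study's threshold was a log2 fold change beyond 1 with a p under 0.05, and the p was taken here as unadjusted. At this threshold 32 members were lower (18.1%) and 21 higher (11.9%), beside 9.84% and 8.12% of all features with a mean CPM of at least 1 and 17.6% and 13.5% of the lncRNA genes. Of these members 31 and 20 also had an adjusted p under 0.05. Of the partners tested 8 were lower (4.5%) and 13 higher (7.4%) at this threshold, beside 7.03% and 6.15% of the protein-coding genes. Control and Sev libraries did not overlap for 108 members (61.0%), 70 of them lower and 38 higher in Sev, beside 56.5% of all features and 60.0% of those with a mean CPM of at least 1. Since the limit applied to the mean of both groups, 16 members averaged under 1 CPM in the control group, of which 12 rose, and 16 averaged under 1 CPM in the Sev group, of which 11 fell. Without control replicate 1 the number of members that passed as lower was 38, and by a limma test on log2(FPKM + 0.1) it was 34 lower and 16 higher.

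DNAJB5-DT showed the largest rise of the members by fold. It had 2, 5 and 3 counts in the control libraries and 327, 260 and 390 counts in the Sev libraries, a log2 fold change of 6.73 ± 0.32 (SE, edgeR adjusted p = 2.91e-05). Here and below, the SE of an edgeR fold change is worked back from the F statistic of the test. At counts this low it may understate the uncertainty. The partner DNAJB5, a co-chaperone of the HSP40 family, rose from 13.1, 13.1 and 12.5 CPM to 78.8, 71.2 and 87.8 CPM (2.62 ± 0.10, edgeR adjusted p = 1.61e-05). Both genes were thus far above their controls in every Sev library, and the lncRNA gained on its partner by 4.03 ± 0.37 log2 units (limma adjusted p = 0.000663). Of its neighbours, looked up after these values were seen, PHF24, on the far side of the lncRNA on chromosome 9, rose by 6.65 ± 0.32, and C9orf131, beyond DNAJB5, rose by 5.78 ± 0.18 (log2, SE).

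RNF32-DT had the smallest p of the risen members. It went from 1.54, 1.31 and 1.48 CPM in the control libraries to 21.2, 20.9 and 23.2 CPM in the Sev libraries (3.91 ± 0.14, edgeR adjusted p = 1.21e-05). RNF32, which encodes a RING finger protein, went from 2.51, 3.48 and 3.03 CPM to 11.8, 12.9 and 5.10 CPM (1.73 ± 0.34, edgeR adjusted p = 0.00508), with Sev replicate 3 well below the other Sev libraries. The libraries did not overlap for either gene, and the lncRNA rose by more than its partner (2.28 ± 0.41, limma adjusted p = 0.00519).

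GJD2-DT, next to the gene of the gap junction protein connexin 36, rose from 0.118, 0.0757 and 0.227 CPM to 2.58, 2.53 and 2.83 CPM (4.17 ± 0.34, edgeR adjusted p = 0.000165). GJD2 itself had 0 to 4 counts in each of the 6 libraries. An exon of GJD2-DT lies over an exon of ACTC1, the cardiac actin gene on the opposite strand, and ACTC1 rose by 3.72 ± 0.29 (log2, SE). The share of reads common to both genes was not tested.

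Some lncRNAs rose next to a partner that did not pass the test. STK4-DT went from 0.213, 0.151 and 0.391 CPM to 1.78, 2.05 and 2.27 CPM (2.97 ± 0.35, edgeR adjusted p = 0.000571). STK4, a kinase of the Hippo pathway, had 32.0, 33.4 and 31.0 CPM in the control and 30, 33.7 and 35.7 CPM in the Sev libraries, which overlapped (0.045 ± 0.10, edgeR adjusted p = 0.733). CD2BP2-DT went from 0.686, 0.858 and 0.948 CPM to 2.10, 2.61 and 2.45 CPM (1.52 ± 0.22, edgeR adjusted p = 0.00138). Here too the libraries of the lncRNA were apart and those of the partner, a spliceosome component, overlapped (0.057 ± 0.09, edgeR adjusted p = 0.623). The ratio of lncRNA to partner rose in both pairs, by 3.01 ± 0.40 for STK4 (limma adjusted p = 0.00179) and by 1.46 ± 0.23 for CD2BP2 (limma adjusted p = 0.00316). On the scale of library totals alone the log2 fold changes of STK4 and CD2BP2 were -0.095 and -0.086, so the sign of these small values depends on the scale.

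ITGB1-DT and ATP13A3-DT also rose beside partners that did not pass, but in GENCODE 29 their starts lie 46947 and 10910 bases past the partner's start on the partner's strand. ITGB1-DT went from 1.06, 1.31 and 1.22 CPM to 3.50, 4.07 and 3.81 CPM (1.66 ± 0.18, edgeR adjusted p = 0.000445) next to the integrin gene ITGB1 (0.053 ± 0.09, edgeR adjusted p = 0.641). ATP13A3-DT went from 1.94, 2.30 and 2.27 CPM to 7.54, 6.44 and 5.78 CPM (1.60 ± 0.17, edgeR adjusted p = 0.000425). ATP13A3, a P5-type ATPase gene, had a log2 fold change of 0.38 ± 0.13 (edgeR adjusted p = 0.0523). It passed with DESeq2's test or size factors (0.39), with the replicate number as a block (0.38), without Sev replicate 2 (0.47) and without control replicate 3 (0.51).

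In a further set the lncRNA and its partner rose together. C2orf49-DT rose from 6.53, 6.01 and 5.73 CPM to 15.8, 13.6 and 19.1 CPM (1.41 ± 0.16, edgeR adjusted p = 0.000478), and C2orf49 by 0.40 ± 0.09 (edgeR adjusted p = 0.00841). MAGOH-DT rose from 1.14, 0.934 and 0.886 CPM to 2.47, 2.45 and 2.68 CPM (1.36 ± 0.20, edgeR adjusted p = 0.00140), and MAGOH, a core protein of the exon junction complex, by 0.64 ± 0.11 (edgeR adjusted p = 0.00285). SLC20A1-DT rose from 1.30, 1.16 and 1.07 CPM to 3.27, 3.81 and 2.50 CPM (1.44 ± 0.22, edgeR adjusted p = 0.00181), and the phosphate transporter gene SLC20A1 by 0.74 ± 0.18 (edgeR adjusted p = 0.0129). In these 3 pairs the lncRNA rose by more than the partner, with ratio changes of 0.99 ± 0.16, 0.71 ± 0.22 and 0.71 ± 0.21. C2orf49 itself did not pass on library totals (0.26), log2(FPKM + 0.1) (0.25) or log2(FPKM + 1) (0.21). Leaving out control replicate 1 put SLC20A1 itself at 0.69, short of the threshold. Exons of CD2BP2-DT and MAGOH-DT lie over exons of TBC1D10B and LRP8, neither of which passed the test (-0.12 ± 0.11 and 0.14 ± 0.17, log2, SE).

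**Figure D2:**
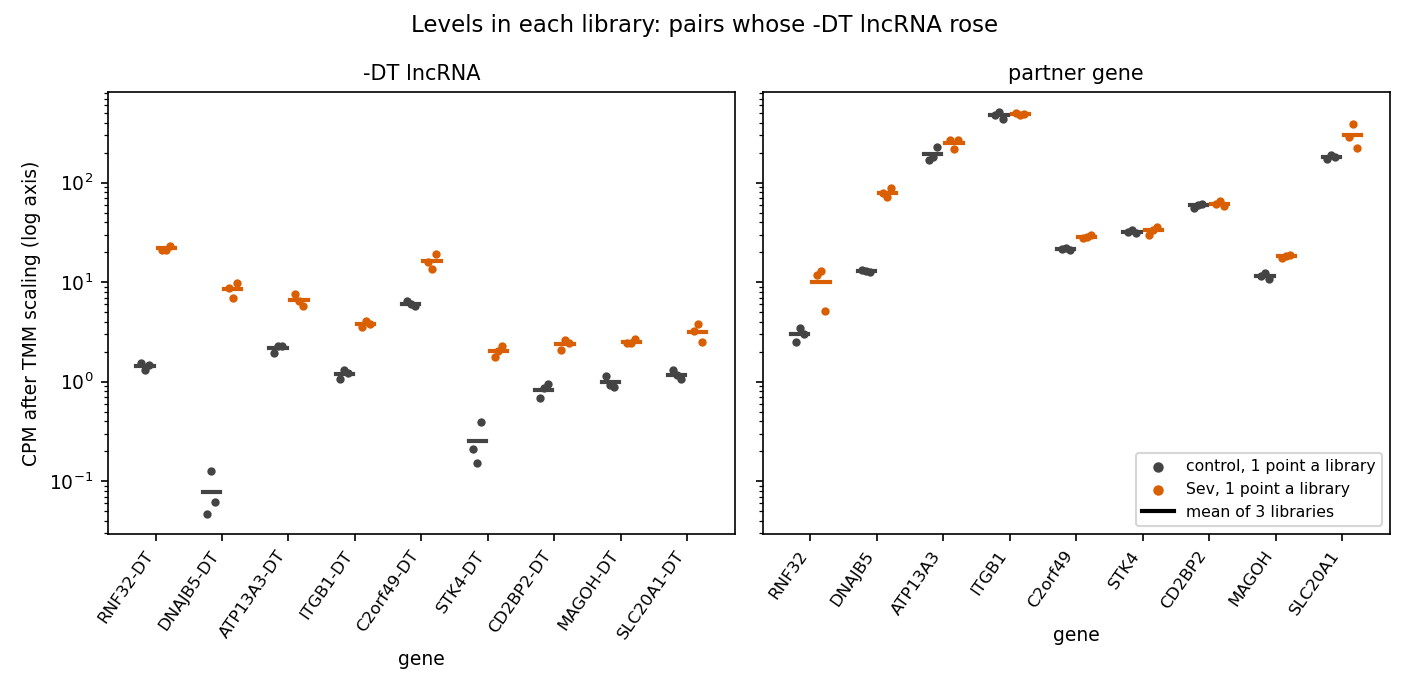
CPM after TMM scaling (log axis) in each control library (grey points) and each Sev library (orange points) for 9 -DT lncRNAs that rose (left) and their partner genes (right), with the mean of 3 libraries as a line. Control and Sev points are apart for all 9 lncRNAs, and they overlap for the partners ATP13A3, ITGB1, STK4 and CD2BP2.

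Further pairs that rose together, chosen for mention after their values were seen, included DUSP5, UAP1 and CABP7. DUSP5-DT rose from 0.449, 0.631 and 0.494 CPM to 2.28, 3.91 and 1.21 CPM and the ERK phosphatase gene DUSP5 by 2.02 ± 0.37, at a ratio change of 0.21 ± 0.24 that did not pass (limma adjusted p = 0.534). UAP1-DT rose from 0.260, 0.479 and 0.124 CPM to 2.28, 1.57 and 1.59 CPM, and UAP1, an enzyme of UDP-N-acetylglucosamine synthesis, rose by 1.23 ± 0.10. CABP7-DT showed the reverse order: it rose by 1.39 ± 0.25 and the calcium-binding protein gene CABP7 by 2.77 ± 0.22, so that the lncRNA lost ground to its partner (-1.38 ± 0.21, limma adjusted p = 0.00279).

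Among the members that fell, GMDS-DT had the smallest p and was also among the most highly expressed. Its level was 43.3, 35.0 and 36.3 CPM in the control libraries and 9.50, 6.95 and 9.87 CPM in the Sev libraries (-2.12 ± 0.16, edgeR adjusted p = 0.000128). GMDS, the enzyme that begins GDP-fucose synthesis, had 13.4, 16.9 and 18.6 CPM and 14.6, 13.6 and 18.6 CPM (-0.064 ± 0.17, edgeR adjusted p = 0.788). The lncRNA thus fell about as far as its ratio to the partner did (-2.07 ± 0.22, limma adjusted p = 0.00122), and the partner's libraries overlapped.

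LRIG2-DT showed the largest fall by fold, from 5.27, 3.48 and 3.27 CPM to 0.345, 0.452 and 0.681 CPM (-3.01 ± 0.32, edgeR adjusted p = 0.000396). LRIG2, a membrane protein with leucine-rich repeats, fell from 81.1, 71.5 and 73.9 CPM to 50.6, 51.4 and 56.6 CPM (-0.51 ± 0.09, edgeR adjusted p = 0.00292). Both genes fell without overlap between the groups, the lncRNA by -2.50 ± 0.29 log2 units relative to its partner (limma adjusted p = 0.00128). The lncRNA and the partner also fell together at FBXO38, TMEM161B and ZNF584. FBXO38-DT fell from 2.79, 1.92 and 2.27 CPM to 0.584, 0.586 and 0.656 CPM (-1.93 ± 0.23, edgeR adjusted p = 0.000666), and the F-box gene FBXO38 fell by 0.93 on the log2 scale. ZNF584-DT, whose start lies 6980 bases past the partner's start in GENCODE 29 and 186 bases upstream in RefSeq, fell from 14.8, 12.2 and 13.1 CPM to 5.73, 5.22 and 4.06 CPM (-1.42 ± 0.17, edgeR adjusted p = 0.000575). ZNF584 itself changed by -0.48 ± 0.13 (edgeR adjusted p = 0.0181), and it missed the threshold without Sev replicate 1 (-0.45) and without control replicate 1 (-0.43). In each of these pairs the lncRNA fell by more than its partner.

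TMEM161B-DT was the most abundant of the 177 members. It fell from 126, 96.7 and 142 CPM to 43.6, 34.0 and 51.0 CPM (-1.51 ± 0.18, edgeR adjusted p = 0.000696). TMEM161B fell from 42.3, 47.0 and 48.4 CPM to 28.3, 25.7 and 32.6 CPM (-0.67 ± 0.11, edgeR adjusted p = 0.00275). Neither gene's libraries overlapped between the groups. Of the other abundant members, UBA6-DT, next to a ubiquitin-activating enzyme gene, fell from 32.1, 31.1 and 32.5 CPM to 19.5, 16.5 and 19.4 CPM (-0.79 ± 0.10, edgeR adjusted p = 0.000905) and UBA6 changed by -0.42 ± 0.07 (edgeR adjusted p = 0.00281). SLC12A2-DT did not pass, at 31.2, 32.6 and 31.5 CPM and 23.2, 25.8 and 28.8 CPM (-0.29 ± 0.10, edgeR adjusted p = 0.0533), although its libraries were apart, and it passed without Sev replicate 3 (-0.37), with at least 10 counts in every library (-0.30) and on the scale of library totals (-0.43). RIPK2-DT did not pass either (-0.20 ± 0.11, edgeR adjusted p = 0.182) except on library totals (-0.34), while RIPK2, a kinase of the NOD receptor pathway, rose from 16.2, 14.5 and 14.2 CPM to 31.8, 35.3 and 28.7 CPM (1.09 ± 0.12, edgeR adjusted p = 0.000384).

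**Figure D3:**
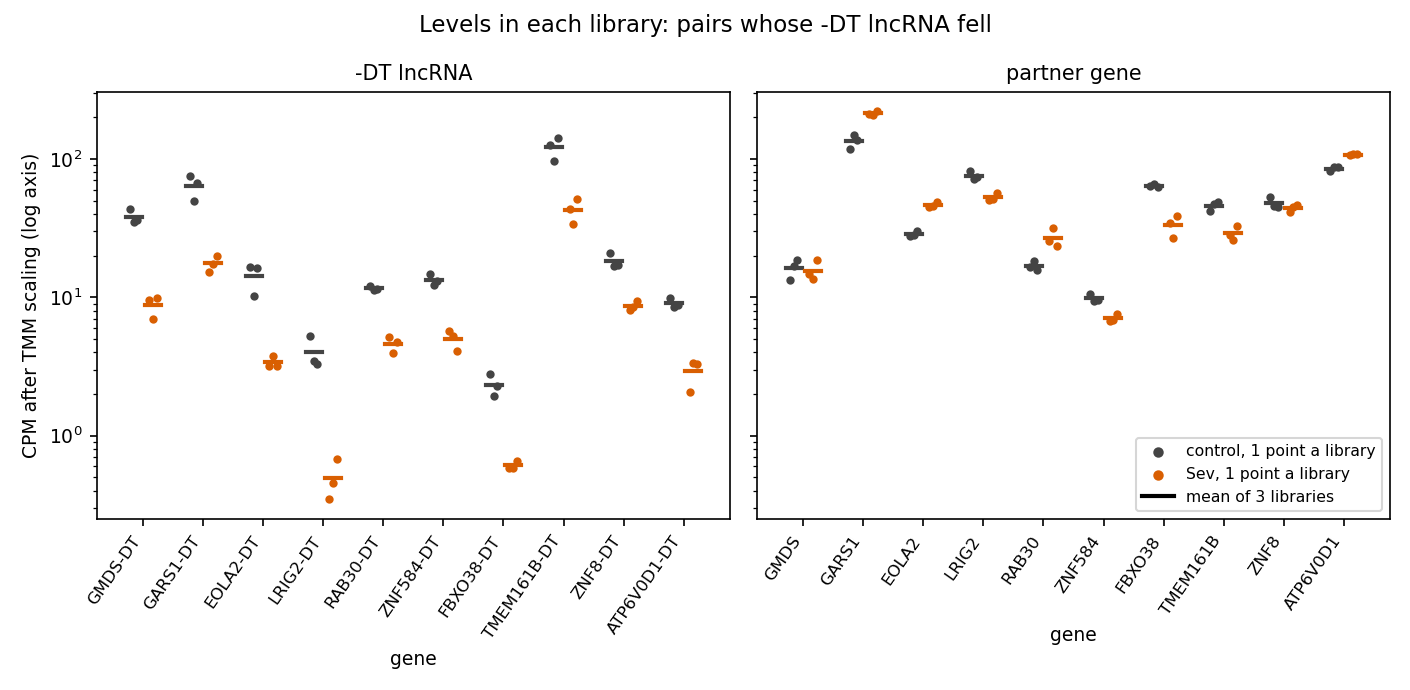
CPM after TMM scaling (log axis) in each control library (grey points) and each Sev library (orange points) for 10 -DT lncRNAs that fell (left) and their partner genes (right), with the mean of 3 libraries as a line. All 10 lncRNAs lie lower in every Sev library, whereas GARS1, EOLA2, RAB30 and ATP6V0D1 lie higher in every Sev library.

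Of the 10 fallen members with the smallest p, 4 stood next to a partner that rose, beside 14 of all 58 fallen members. Of all partners tested, 35.2% rose. GARS1-DT fell from 74.6, 49.7 and 66.4 CPM to 15.2, 17.4 and 20.02 CPM (-1.86 ± 0.17, edgeR adjusted p = 0.000237). GARS1, the glycyl-tRNA synthetase gene, rose from 119, 149 and 137 CPM to 210.2, 208 and 220.3 CPM (0.66 ± 0.10, edgeR adjusted p = 0.00147). The groups were apart for both genes in opposite directions, and the ratio of lncRNA to partner fell by 2.51 on the log2 scale (limma adjusted p = 0.000663). EOLA2-DT fell from 16.6, 10.1 and 16.3 CPM to 3.19, 3.75 and 3.21 CPM (-2.08 ± 0.22, edgeR adjusted p = 0.000367), and EOLA2 rose from 27.7, 28.3 and 30.3 CPM to 44.9, 45.9 and 48.9 CPM (0.70 ± 0.09, edgeR adjusted p = 0.000725). RAB30-DT fell from 12.1, 11.3 and 11.4 CPM to 5.15, 3.94 and 4.75 CPM (-1.33 ± 0.15, edgeR adjusted p = 0.000443), and RAB30, a small GTPase of the Golgi, rose from 16.4, 18.3 and 15.8 CPM to 25.4, 31.8 and 23.6 CPM (0.68 ± 0.14, edgeR adjusted p = 0.00570). The same held for ATP6V0D1-DT, which fell by 1.63 on the log2 scale (edgeR adjusted p = 0.000814) while the V-ATPase subunit gene ATP6V0D1 rose from 81.1, 87.0 and 86.9 CPM to 106, 108 and 108 CPM (0.34 ± 0.07, edgeR adjusted p = 0.00736). The rise of ATP6V0D1 did not pass on the scale of library totals (0.20) or on log2(FPKM + 0.1) (0.19) and log2(FPKM + 1) (0.18). ZNF8-DT fell from 20.9, 16.8 and 17.2 CPM to 8.02, 8.49 and 9.39 CPM (-1.08 ± 0.14, edgeR adjusted p = 0.000739) and ZNF8 did not pass (-0.11 ± 0.10, edgeR adjusted p = 0.381). Exons of ZNF8-DT lie over exons of ZNF544, which fell by 0.64 on the log2 scale, and the part of shared reads was not tested.

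Over the 176 pairs with both genes tested, changes in the same direction were more common than opposite ones. Both genes rose in 16 pairs and both fell in 23, so 39 pairs (22.2%) moved together, beside 12.9% of all 2532 pairs fitted and 12.3% of the 2179 other head-to-head gene pairs with starts within 1 kb. In 17 pairs (9.66%) the genes moved in opposite directions, beside 6.28% and 6.38%. In 14 of these 17 the lncRNA fell and the partner rose, and in 3 the lncRNA rose and the partner fell. The counts of each gene taken alone lean the same way, since 58 lncRNAs of these pairs fell and 28 rose while 62 partners rose and 37 fell, so nothing about the pairs is read from 14 against 3. In 21 pairs the lncRNA alone fell and in 9 it alone rose, and in 32 pairs the partner alone rose and in 11 it alone fell. Neither gene passed in 47. Read by partner, 23 of the 37 members next to a fallen partner fell and 3 rose, whereas of the 62 members next to a risen partner 16 rose and 14 fell. Across genes, the log2 fold changes of lncRNA and partner had a Pearson correlation of 0.38 (Spearman 0.30, n = 176 pairs that share 6 libraries), beside 0.23 (0.19) for the 2179 other pairs. The other pairs had no limit on the mean CPM, and the 2532 pairs include the -DT pairs. Features with a mean CPM of at least 1 passed more often (48.0% against 43.7% of all features), so these shares of pairs are not like for like. No trait of -DT pairs is read from them. Without Sev replicate 1 or without control replicate 1 the pairs that moved together numbered 24 and 23, and the opposite ones 10 and 9. Without control replicate 3 the opposite pairs numbered 10.

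**Figure D4:**
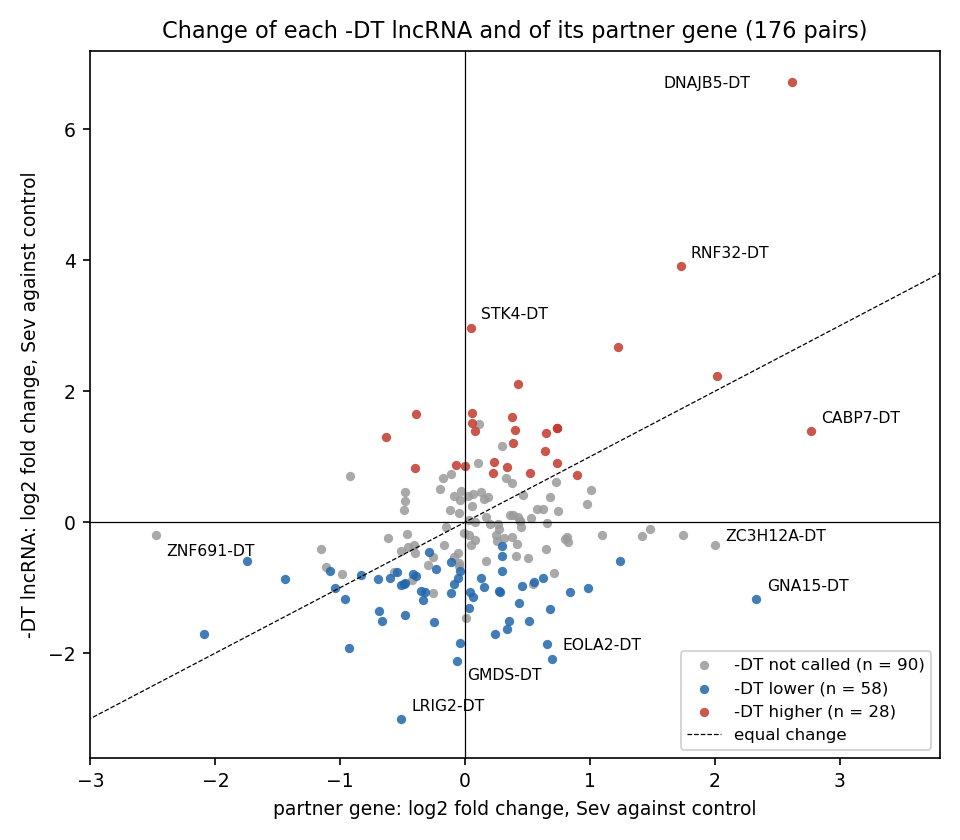
Log2 fold change (Sev against control) of each partner gene (x axis) and of its -DT lncRNA (y axis) for 176 pairs, with points coloured by the call of the lncRNA and a dashed line of equal change. Blue points, the fallen lncRNAs, spread over both sides of the vertical 0 line, with 14 of the 58 next to a partner that rose.

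The ratio of lncRNA to partner within each library removes what both genes share. It changed in 75 of the 176 pairs (42.6%; limma, adjusted p under 0.05 over 2532 pairs), beside 34.9% of all pairs fitted and 35.2% of the other head-to-head pairs. Those other pairs had no limit on the mean CPM, so the shares are not like for like. The lncRNA lost against its partner in 51 pairs and gained in 24, and the median change was -0.36 on the log2 scale. Without Sev replicate 1 the lncRNA gained in 15 pairs. The steepest loss was that of GNA15-DT, which went from 1.73, 1.06 and 1.65 CPM to 0.451, 0.825 and 0.681 CPM (-1.18 ± 0.31, edgeR adjusted p = 0.0180) while the G protein subunit gene GNA15 rose from 0.378, 0.227 and 0.371 CPM to 1.06, 2.00 and 1.92 CPM (2.33 ± 0.35, edgeR adjusted p = 0.00165), a ratio change of -3.46 ± 0.32 (limma adjusted p = 0.000663). The starts of that pair lie 18982 bases apart with overlapping exons in GENCODE 29, and the call for GNA15-DT was lost without Sev replicate 1 (-0.97), control replicate 1 (-1.06) or control replicate 3 (-1.10). ZC3H12A-DT did not pass (-0.35 ± 0.22, edgeR adjusted p = 0.227), but the RNase gene ZC3H12A rose from 22.3, 20.7 and 20.7 CPM to 76.1, 121 and 58.3 CPM (2.00 ± 0.24, edgeR adjusted p = 0.000674), so the ratio fell by 2.29. ZNF691-DT was the mirror case: it did not pass (-0.19 ± 0.18, edgeR adjusted p = 0.404) and ZNF691 fell from 4.82, 3.56 and 5.85 CPM to 1.17, 1.01 and 0.379 CPM (-2.48 ± 0.39, edgeR adjusted p = 0.00192), which moved the ratio by 2.39 ± 0.40 (limma adjusted p = 0.00400).

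Opposite changes with large steps on both sides included SP2, TMEM11 and CHD1. TMEM11-DT fell from 3.64, 4.04 and 3.40 CPM to 1.49, 2.05 and 1.77 CPM (-1.06 ± 0.19, edgeR adjusted p = 0.00347), and TMEM11, a mitochondrial inner membrane protein gene, rose from 17.7, 18.8 and 15.7 CPM to 35.7, 23.3 and 34.4 CPM (0.84 ± 0.17, edgeR adjusted p = 0.00597). SP2-DT fell from 3.50, 1.77 and 2.33 CPM to 1.06, 1.30 and 1.41 CPM (-1.005 ± 0.29, edgeR adjusted p = 0.0237) and the transcription factor gene SP2 rose by 0.98 ± 0.11. CHD1-DT fell from 1.28, 1.36 and 1.48 CPM to 0.850, 0.665 and 0.757 CPM (-0.86 ± 0.22, edgeR adjusted p = 0.0166) and the chromatin remodeller gene CHD1 rose by 0.63 ± 0.11. The libraries were apart for all of these genes, but the call for SP2-DT was lost without Sev replicate 1 (-0.89), Sev replicate 2 (-1.02) or control replicate 1 (-0.71), and that for CHD1-DT without control replicate 3 (-0.80).

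The 3 pairs with a risen lncRNA and a fallen partner were TBC1D22A, CZIB and GTSE1, the last named after its values were seen. TBC1D22A-DT rose from 1.06, 0.707 and 0.412 CPM to 2.15, 1.20 and 1.99 CPM (1.30 ± 0.38, edgeR adjusted p = 0.0268) and TBC1D22A changed by -0.64 ± 0.12. CZIB-DT had 0.449, 0.303 and 0.742 CPM and 0.717, 1.30 and 2.75 CPM, which overlapped (1.66 ± 0.53, edgeR adjusted p = 0.0374), and CZIB changed by -0.39 ± 0.12. GTSE1-DT rose by 0.82 ± 0.26 (edgeR adjusted p = 0.0370) and GTSE1 changed by -0.40 ± 0.11. In the first 2 pairs the lncRNA's call was lost when single libraries were left out, and that of CZIB-DT also on library totals (1.53) and with no expression filter (1.64). TBC1D22A-DT missed the threshold without Sev replicate 1 (1.14), Sev replicate 3 (1.21), control replicate 2 (1.27) or control replicate 3 (0.998), and CZIB-DT without Sev replicate 2 (1.79), Sev replicate 3 (1.003), control replicate 1 (1.57) or control replicate 2 (1.40). CZIB itself missed it without Sev replicate 2 (-0.34), Sev replicate 3 (-0.36), control replicate 1 (-0.37) or control replicate 2 (-0.38).

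The direction of the members' change went with the length of their genes. Of the 64 members with a span under 5 kb in GENCODE 29, 16 rose and 10 fell, with a median log2 fold change of 0.12. Of the 37 spanning 5 to 20 kb, 3 rose and 14 fell (median -0.47). Of the 50 spanning 20 to 100 kb, 6 rose and 22 fell (median -0.65), and of the 24 of 100 kb or more, 3 rose and 12 fell (median -0.70). Fallen members had a median span of 24030 bases and risen members one of 3914.5 bases. Their partners did not follow this order, with medians of 0.092, 0.11, 0.13 and -0.026 over the same 4 classes of member span. The Spearman correlation between span and log2 fold change was -0.34 over 175 members, -0.10 over 2507 other lncRNA genes and -0.085 over 13398 protein-coding genes with a mean CPM of at least 1. In the other lncRNA genes the medians were -0.037, -0.12, -0.21 and -0.47 from the shortest class to the longest, in the same order. The share that fell was 15.6%, 37.8%, 44.0% and 50% of the members and 25.02%, 25.6%, 30.2% and 43.9% of the other lncRNA genes in these classes, so that in the longest class these shares lay close together. The share that rose was 25%, 8.11%, 12% and 12.5% of the members and 21.8%, 20.65%, 18.98% and 17.2% of the other lncRNA genes. The 3 risen members of 100 kb or more were RNF32-DT with 168459 bases, ITGB1-DT with 123258 bases and EDIL3-DT with 106339 bases.

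**Figure D5:**
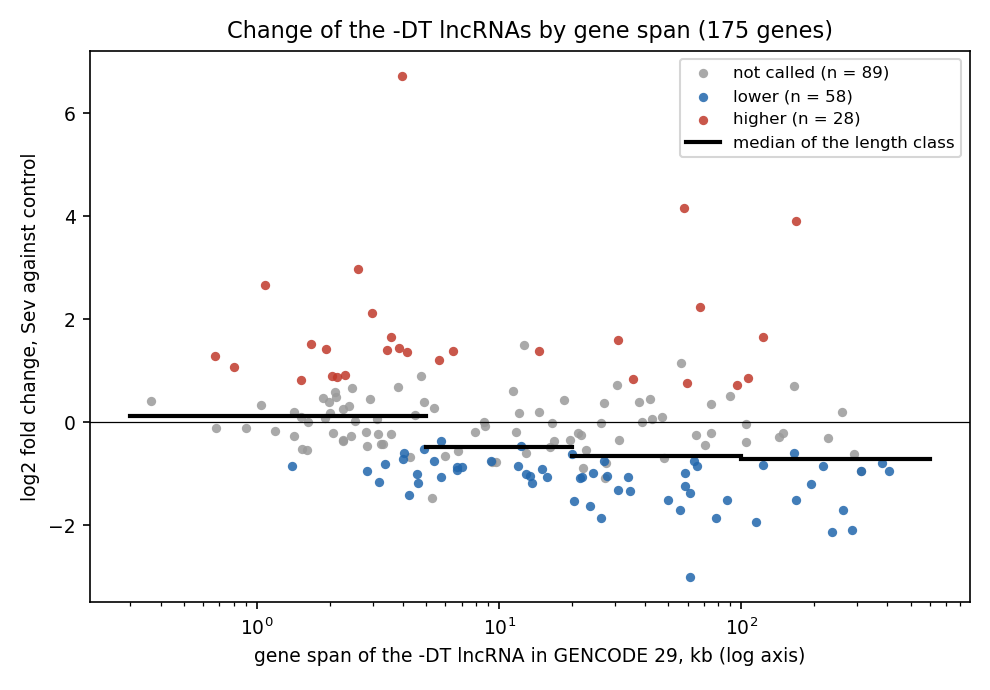
Log2 fold change (Sev against control) of 175 -DT lncRNAs against the span of their gene in kb (log axis), coloured by call, with a black line at the median of each of 4 length classes. The medians go from 0.12 under 5 kb to -0.70 at 100 kb or more.

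Leaving out the 47 pairs with overlapping exons and the 2 members without a position left 18 risen (14.1%) and 44 fallen (34.4%) of 128 members, close to the shares over all members.

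At ZNF594 and ZNF132, zinc finger genes whose pairs were chosen after their values were seen, both genes fell. ZNF594-DT fell by 1.71 and ZNF594 by 2.09 on the log2 scale, and ZNF132-DT fell by 0.74 and ZNF132 by 1.08.

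Of the machinery that ends and degrades upstream transcripts, 85 genes were measured, of which 27 rose (31.8%) and 15 fell (17.6%), beside 24.6% and 22.4% of protein-coding genes with a mean CPM of at least 1 (median log2 fold change 0.035, and -0.10 on the scale of library totals). Of the 13 genes of the nuclear exosome and its cofactors 6 rose and none fell, among them the ring subunit EXOSC5 (0.88) and the exonuclease DIS3 (0.49). ZFC3H1, the scaffold that hands polyadenylated nuclear RNA to the exosome, fell from 65.9 ± 1.68 CPM to 27.1 ± 1.13 CPM (SD, n = 3; log2 fold change -1.28, edgeR adjusted p = 7.42e-05). Of 15 Integrator genes 6 fell and 1 rose, with the largest fall for INTS3 (-1.55), which went from 170.4 ± 17.9 CPM to 58.4 ± 11.98 CPM. INTS4 and INTS6 fell by 0.61 and 0.86 on the log2 scale. Of 6 U1 snRNP genes, SNRNP70, SNRPA, SNRPC and LUC7L2 rose by 0.30 to 0.58 and LUC7L3 fell. The restrictor gene ZC3H4 fell by 0.26, 7 of 19 cleavage and polyadenylation genes rose and 4 fell, and 6 of 17 pausing and elongation genes rose, among them SUPT5H (0.51), and LEO1 fell. Cap-binding and ARS2 genes counted 2 risen of 5 (SRRT and ZC3H18), and NEXT and PAXT genes 1 risen and 2 fallen of 8. Only ZFC3H1 and INTS3 of the 85 went beyond a log2 fold change of 1.

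RefSeq promoter windows from 250 bases before to 50 bases after the start were found for 141 members and 153 partners and had a median GC content of 68.0% in both, beside 58.3% over all 27305 windows. Within the 133 pairs with both windows the median absolute difference in GC content was 2.67 percentage points and it exceeded 10 points in 19 pairs, among them ATP13A3 (74.3% in the lncRNA's window and 28.3% in the partner's) and RNF32 (72.7% and 44.0%). The ratio of observed to expected CpG was 0.897 for members, 0.889 for partners and 0.580 over all windows. SP1 letters (GGGCGG) stood in 69.5% of the members' windows and 71.9% of the partners' (44.6% of all windows), and ETS letters (CCGGAAG) in 26.2% and 30.7% (10.7%). NFY letters (CCAAT) stood in 32.6% and 39.9% (35.7%), and TATAAA in 4.26% and 5.23% (11.95%). CRE letters (TGACGTCA) stood in 5 of the 26 windows of partners of risen members, 1 of 55 of fallen ones and 1 of 72 of the others, and in 2 of 22, 1 of 53 and 1 of 66 windows of the members themselves, beside 1.98% of all windows. For CACGTG, the E-box letters, these numbers were 5 of 26, 7 of 55 and 5 of 72 for the partners and 4 of 22, 3 of 53 and 7 of 66 for the members, beside 7.43% of all windows. The composite ATF4 and CEBP letters (TGATGCAA) stood in 1 of 141 members' windows and 3 of 153 partners' windows (1.961%), beside 0.923% of all windows. Both strands were searched, windows of a pair overlap where the starts are close, and a match describes letters and not binding.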

How the data were processed

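RNA of U251 cells was sequenced from 3 control and 3 Sev libraries, strand-specific, rRNA-depleted and paired-end. The deposited count table holds the authors' raw read counts per gene, and the deposited FPKM table the authors' values scaled by gene length and library size, both with 1 column per library and mapped to samples by column name. The submitters' processing notes name bcl2fastq 2.19, featureCounts and hg18 without a role, although the gene IDs are newer than that build. The aligner, the strand setting of the counting and the method behind FPKM are not given in the sources used here. The labels assign no gas concentration to the libraries, and the legend of the study's sequencing comparison names 5.1%.

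Symbols came from a table of Ensembl IDs (60295 of 61496 features matched), positions from GENCODE 29 (58457 matched), and promoters from RefSeq (GRCh38.p14). Counts were fitted with edgeR 4.0.16 (R 4.3.3; TMM, filterByExpr, quasi-likelihood test, Benjamini-Hochberg over 27514 features, both directions). Ratios were fitted with limma 3.58.1 on log2 of lncRNA over partner counts, 0.5 added to each, over 2532 pairs. DESeq2 1.42.0 was an alternative, and the fits were tested on simulated data first. Fold changes and ratio changes are given on the log2 scale, Sev against control, ± SE.

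The named members were the 10 with the smallest p in each direction and the 5 with the highest mean CPM. Added were the 5 pairs in each direction with the largest difference of log2 fold change (lncRNA minus partner) among pairs with a changed ratio. The 8 opposite pairs with the largest smaller change and the 3 -DT genes just inside and outside the limit were also taken. Each was named with its partner. Planned classes of partners by symbol pattern missed members and are not reported. The members and lists were chosen with earlier results of these data known.

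Replicates of a group differed beyond counting noise in 51.7% to 69.8% of 13227 genes. The comparison used library totals without TMM, so differences in scaling are included. Between same-numbered control and Sev libraries the deviations from the group means had correlations of -0.062, 0.0090 and 0.057. Between libraries of unlike number they ran from -0.14 to 0.12. No pairing by number was seen, and with 3 libraries in a group these values cannot exclude it.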

Additional observations from a re-analysis of the deposited data

How the results depend on the processing

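DESeq2's test or size factors, a minimum of 10 counts in every library and no expression filter left the direction of every count of members and both medians in place, each within 1.5 times. On library totals alone the medians were -0.39 for members and -0.049 for partners. With limma on log2(FPKM + 0.1), which leaves out features that do not reach an FPKM of 0.5 in 3 libraries, 16 members were higher and 34 lower, 12 and 19 past the fold threshold, 23 pairs moved together and 7 apart, and the medians were -0.34 and -0.073. With log2(FPKM + 1) these were 17 and 36, then 2 and 3, 7 pairs apart, and medians of -0.17 and -0.059. At a mean CPM of at least 5 they were 4 and 15, then 3 and 10, 9 pairs together and 5 apart, and medians of -0.42 and 0.28. A pair of subsets was added after seeing the data. Without overlapping exons 18 members were higher, 13 and 21 passed the fold threshold, the partners' median was 0.054 and the lncRNA gained on its partner in 15 pairs, and with starts within 1 kb the partners' median was 0.065. Both hold fewer pairs by construction.

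Leaving out 1 library at a time gave 23 to 29 members higher, 38 to 52 lower, 19 to 24 and 27 to 37 past the fold threshold, 23 to 35 pairs together, 9 to 16 apart, and 15 to 24 gains and 38 to 48 losses in the ratio. The medians ranged from -0.31 to -0.25 for members and from 0.067 to 0.11 for partners. The replicate number as a block gave 27 members higher, 50 lower, 34 pairs together and 11 apart. It ended the calls for SP2-DT (-0.96), ZNF584 (-0.48) and CZIB (-0.39). Pairing by that number was neither seen nor excluded. Uncalled partners near 0 changed sign: on library totals, log2(FPKM + 0.1) and log2(FPKM + 1), ITGB1 was at -0.087, -0.088 and -0.086, STK4 at -0.095, -0.099 and -0.075, CD2BP2 at -0.086, -0.087 and -0.082, and GSK3B at -0.014, -0.017 and -0.015. With 1 library left out ITGB1 ranged from -0.014 (without control replicate 3) to 0.10, STK4 from -0.010 (without Sev replicate 3) to 0.11, and GMDS from -0.21 to 0.036 (without control replicate 3), with 0.031 without Sev replicate 2. Over the named genes and all alternatives, 842 log2 fold changes kept direction and side of the threshold, 40 kept direction but no longer passed, 11 kept direction and newly passed, and 16 changed sign. The causes were not tested.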

Other observations

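Of the 411 -DT genes below the limit, 50 had no count in any library and 180 could be tested, of which 26 were higher and 27 lower in Sev at an edgeR adjusted p under 0.05 (22.1% higher and 21.5% lower over all features tested), with a median log2 fold change of 0.054. The examples that follow were chosen after their values were seen. CARHSP1-DT had 0 counts in all 3 control libraries and 21, 23 and 19 in the Sev libraries, at least 7.91-fold higher against a floor of 3 counts per library. EDRF1-DT had 23, 16 and 21 counts in the control and 0 in every Sev library, at least 5.87-fold lower against the same floor. Its exons overlap those of the partner by 52 bases and lie over exons of other genes on both strands, and shared reads were not tested. The partners CARHSP1 and EDRF1 did not pass the test (0.22 ± 0.09 and 0.15 ± 0.10, log2, SE).

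TNFRSF10A-DT, next to a gene of a TRAIL death receptor, had 0, 3 and 0 counts in the control and 31, 37 and 30 in the Sev libraries, and TNFRSF10A went from 0, 2 and 2 counts to 47, 66 and 42 counts, at least 19.5-fold higher against that floor. Their exons overlap by 266 bases in GENCODE 29, and shared reads were not tested. KPNB1-DT went from 49, 57 and 67 counts to 9, 5 and 15 counts while the nuclear import gene KPNB1 rose by 0.52 ± 0.11, the same opposed pattern as at GARS1. An exon of KPNB1-DT lies over an exon of NPEPPS on the opposite strand. OSMR-DT went from 71, 44 and 86 counts to 7, 14 and 16 counts beside a partner at -0.053 ± 0.09 that did not pass.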
